A study of Mus musculus with 6 samples.

Results

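The YTH-domain proteins are the family of RNA-binding proteins that read N6-methyladenosine (m6A), the most common internal mark of mRNA. The 5 mouse genes of the family, Ythdf2, Ythdf1, Ythdf3, Ythdc1 and Ythdc2, were taken by their Ensembl gene identifiers (IDs), and all 5 were found among the 54446 gene IDs counted in each library. The rule is membership of the family and uses no measured value, though the family was picked with earlier results of these data known. The data are RNA immunoprecipitation sequencing (RIP-seq), in which RNA that comes down with a protein is sequenced beside the RNA of the lysate. The 3 YTHDF2 immunoprecipitation (IP) libraries and the 3 Input libraries all came from regulatory T (Treg) cells of wild-type (WT) mice with a Foxp3-GFP reporter, sorted as live CD45+ CD4+ GFP+ cells from tumours of B16F10, a mouse melanoma line grown under the skin. For the IP, lysate was rotated for 4 hours with beads carrying an antibody to mouse YTHDF2 and the beads were washed 6 times. The Input was 10% of the lysate, set aside before that step. The age of the animals, the number pooled per library and whether equal replicate numbers share a lysate were not stated in the sources used here. The p-values therefore reflect variation among these 6 libraries alone, which could be technical.

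The family has a pair of branches. YTHDF1, YTHDF2 and YTHDF3 are closely related cytoplasmic proteins. YTHDF2 is known for recruiting the CCR4-NOT deadenylase to methylated mRNAs and so shortening their lives, YTHDF1 has been linked to their translation, and YTHDF3 has been described as acting with both. YTHDC1 is a nuclear reader with roles in splicing and export, and YTHDC2 is a larger protein with an RNA helicase domain, best known for its role in germ cells. The transcripts of these genes are here both products of the Treg cell and possible cargo of the YTHDF2 protein, and the comparison of IP with Input gives how each one was recovered.

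In the RefSeq annotation of GRCm38.p6, the assembly that mm10 corresponds to, Ythdf2 (ENSMUSG00000040025.17 in the files) spans chr4:132184916-132212256 on the minus strand, Ythdf1 (ENSMUSG00000038848.14) spans chr2:180904377-180920936 on the minus strand and Ythdf3 (ENSMUSG00000047213.14) spans chr3:16183148-16217037. Ythdc1 (ENSMUSG00000035851.14) spans chr5:86803980-86836659 on the plus strand and Ythdc2 (ENSMUSG00000034653.11) spans chr18:44827730-44889720. These spans include introns. The 5 spans overlapped 0 other genes of that annotation on either strand. Transcript lengths were not used here, so read counts are compared between libraries for one gene, or as ratios of ratios between genes, and no order of transcript levels among the 5 genes is given.

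The IP libraries held 6847731 to 8465453 gene-assigned reads and the Input libraries 10029733 to 14704617. Gene IDs with any reads numbered 19991, 18501 and 14200 in IP replicates 1, 2 and 3, against 33344, 29354 and 26250 in the Input replicates. IP replicate 3 thus had the fewest, and how far this bears on the results was not tested. Between 71.2% and 72.1% of the reads of an IP file fell outside annotated features, against 49.6% to 51.6% in an Input file, and the part of this difference in the results was not tested. Reads without a unique alignment made up 2.88% to 3.35% of IP files and 9.18% to 9.65% of Input files, and reads that match several paralogues or a copy of one cannot be told apart in these counts. The files do not pair IDs with symbols, so the labelled cell type was not checked against Treg or other markers, and the m6A writers, erasers and decay partners that were listed as the rest of the pathway were not counted. No control precipitation was analysed here, so recovery means abundance in the IP over that in the Input. In bulk lysates, fewer cells holding a transcript and less of it per cell cannot be told apart.

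The smallest count of any member in any library was 185 reads, for Ythdf1 in IP replicate 1, and the largest was 3897, for Ythdc1 in Input replicate 1. All 5 members passed the filter on low counts. Levels are given as counts per 1000000 reads of the genes that passed this filter (CPM), with library sizes scaled by edgeR's TMM factors. Summed over the 5 genes, the family took 803 ± 65.7 CPM in the IP (SD, n = 3) and 609 ± 9.73 CPM in the Input (SD, n = 3). Of the 5 members, 1 rose in the IP, Ythdc1, and 0 fell. That is a call in edgeR's quasi-likelihood test at an adjusted p under 0.05 over all genes tested. Over the 15615 genes tested, 10.4% were called, 4.33% higher and 6.11% lower in the IP. Among the 4144 tested genes within the members' range of mean Input level, 39.7 to 285 CPM, 9.68% were called higher and 14.1% lower. The median log2 fold change, IP over Input, was 0.49 for the members and -0.12 for all tested genes. Both the family sum and this median depended on the scaling. Per 1000000 of all reads in the file (RPM), the family took 191, 224 and 202 RPM in IP replicates 1, 2 and 3, against 229, 220 and 225 RPM in the Input replicates, and with library sizes from all reads the members' median was -0.03, against -0.65 for all tested genes.

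**Figure D1:**
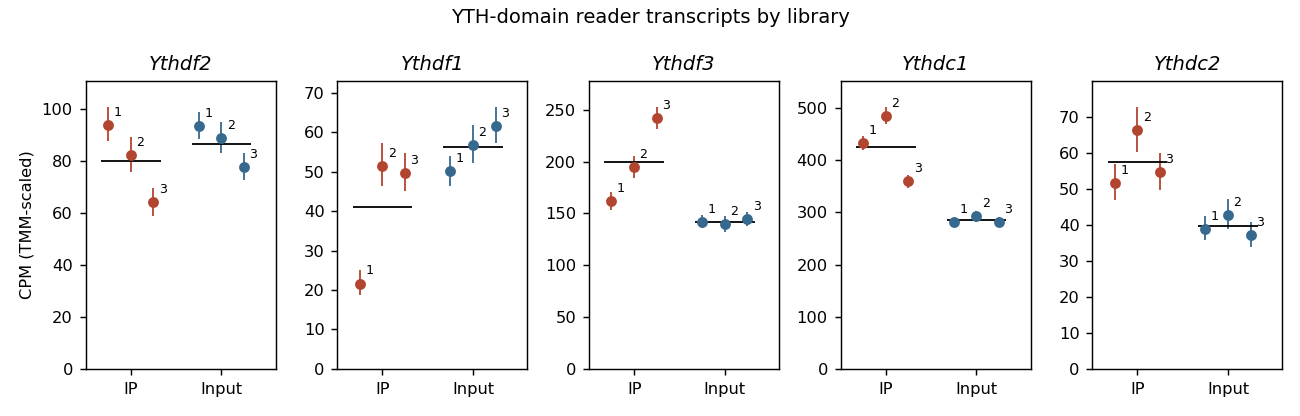
CPM (TMM-scaled) of each member, 1 panel per gene with its own axis from 0, in the IP libraries (left, red) and the Input libraries (right, blue). Points are libraries with their replicate number, bars are 95% Poisson intervals for counting error only, and black lines are group means. The IP points of Ythdf3, Ythdc1 and Ythdc2 all lie above the Input points, those of Ythdf2 and Ythdf1 overlap them, and IP replicate 1 of Ythdf1 stands low at 21.7.

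Ythdf2 encodes the protein that the antibody binds. Its transcript had 93.9, 82.2 and 64.0 CPM in IP replicates 1, 2 and 3, against 93.4, 88.7 and 77.6 CPM in Input replicates 1, 2 and 3. The groups overlapped, and the highest value of the 6 libraries lay in the IP. The mean was 80.0 ± 15.1 CPM in the IP and 86.6 ± 8.12 CPM in the Input (SD, n = 3 each). The log2 fold change was -0.11 ± 0.24 (SE; edgeR quasi-likelihood test, adjusted p = 0.857). Its 95% interval of -0.65 to 0.43 corresponds to a fold of 0.636 to 1.34, and folds of Ythdf2 mRNA outside these bounds lay outside the interval with this scaling. The estimate sat at the middle of all genes, with 50.2% of tested genes below it. Its sign turned with the scaling, at 0.08 with upper quartile factors and 0.00 with total gene counts, and it was -0.64 with the full read total of each file as its library size, where edgeR gave an adjusted p of 0.111. Under the same 3 scalings the median of all tested genes was 0.08, 0.00 and -0.65, so Ythdf2 lay beside the median in these edgeR fits. It lay above the median in limma voom, at -0.13 against -0.57, and with a replicate block, at -0.13 against -0.50. On the scale of all reads in the file, Ythdf2 took 23.6, 20.9 and 16.8 RPM in IP replicates 1, 2 and 3, against 35.3, 31.5 and 29.0 in the Input replicates. Every IP library lay below every Input one on that scale. The share of all tested genes that separate in this way was not counted. With their median at -0.65 there, this separation is not shown to be particular to Ythdf2.

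Ythdf1, the translation-linked paralogue, varied most within the IP. It had 21.7, 51.5 and 49.8 CPM in IP replicates 1, 2 and 3, against 50.2, 56.9 and 61.7 CPM in the Input replicates. IP replicate 1 lay below every other library. IP replicate 3, at 49.8, lay just below the lowest Input library, at 50.2, and only IP replicate 2 lay within the Input range. The coefficient of variation (CV) was 40.9% over the IP and 10.3% over the Input libraries, while counting alone gives 7.35% for the lowest IP library. The log2 fold change was -0.46 ± 0.37 (SE), with a 95% interval of -1.30 to 0.38 (edgeR, adjusted p = 0.560). Without IP replicate 1 it was -0.15 (edgeR, adjusted p = 0.776), so that 1 library set much of its size under TMM. With library sizes from all reads it was -0.98 (edgeR, adjusted p = 0.132), where the median of all tested genes was -0.65. On the scale of all reads in the file, Ythdf1 took 5.43, 13.1 and 13.1 RPM in IP replicates 1, 2 and 3. The Input replicates had 19.0, 20.2 and 23.0 RPM, so all IP libraries lay lower there. The share of all tested genes that separate on that scale was not counted. Since their median was -0.65, this separation is not shown to be particular to Ythdf1.

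Ythdf3, the third cytoplasmic paralogue, had 162, 195 and 242 CPM in IP replicates 1, 2 and 3, against 142, 140 and 144 CPM in the Input replicates. Every IP library lay above every Input library, and the Input values sat within 1.03-fold of each other while those of the IP spanned 1.49-fold. The means were 199 ± 40.2 CPM in the IP and 142 ± 2.31 CPM in the Input (SD, n = 3 each). The log2 fold change of 0.49 ± 0.19 (SE), a fold of 1.40 with a 95% interval of 1.04 to 1.90, had an unadjusted p of 0.0323 and did not pass after adjustment (edgeR, adjusted p = 0.156). IP replicate 3 had the highest value, and without it the log2 fold change was 0.33 (edgeR, adjusted p = 0.226). With library sizes from all reads it was -0.03.

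Ythdc1, the nuclear reader, was the member that passed the test. It had 433, 485 and 359 CPM in IP replicates 1, 2 and 3, against 281, 292 and 281 CPM in the Input replicates. The lowest IP library lay above the highest Input library. The means were 425 ± 63.0 CPM in the IP and 285 ± 6.42 CPM in the Input (SD, n = 3 each). The log2 fold change was 0.58 ± 0.16 (SE), a fold of 1.5 with a 95% interval of 1.17 to 1.91, and it passed the threshold (edgeR, adjusted p = 0.0456). Its size was not unusual among all genes: 73.1% of tested genes had a lower log2 fold change and the rest a higher one.

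The call on Ythdc1 stood close to the threshold and was lost under 1 scaling, under 1 filter and without any 1 of 5 libraries. It also passed in DESeq2, with an adjusted p of 0.00161, and in limma voom, with 0.0217, tests that called 18.0% and 16.6% of the same genes. It was lost without IP replicate 1 or 2, where edgeR's adjusted p was 0.0854 and 0.0953, and without Input replicate 1, 2 or 3, with 0.159, 0.178 and 0.203. Without IP replicate 3 the call was kept, at an adjusted p of 0.0103 in edgeR's test. The log2 fold change stayed between 0.48 and 0.69 in the 6 fits that leave out a library, each of which has fewer libraries to estimate the spread. The call was also lost without a filter on low counts, at an adjusted p of 0.128. With library sizes from all reads the log2 fold change was 0.05, with an adjusted p of 0.886, while the median of all tested genes was -0.65, so that Ythdc1 lay above the median on that scale too. On the scale of all reads in the file, Ythdc1 took 108, 124 and 94.3 RPM in IP replicates 1, 2 and 3, against 106, 104 and 105 in the Input replicates, so that here the IP values lay on both sides of those of the Input.

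Ythdc2, the helicase member, had 51.8, 66.3 and 54.6 CPM in IP replicates 1, 2 and 3, against 39.0, 42.8 and 37.3 CPM in the Input replicates. The groups did not overlap. The means were 57.6 ± 7.73 CPM in the IP and 39.7 ± 2.86 CPM in the Input (SD, n = 3 each). The estimate was close to that of Ythdc1, with a log2 fold change of 0.54 ± 0.28 (SE), but the interval was wider, from -0.10 to 1.17, and the test was not passed (edgeR, adjusted p = 0.303). Ythdc2 had 442 to 460 reads per IP library and Ythdc1 had 3025 to 3694, and the cause of the wider interval was not tested. With library sizes from all reads the log2 fold change of Ythdc2 was 0.01. A miss of the threshold does not show that Ythdc2 was recovered at its Input level.

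In TMM-scaled CPM, the IP libraries lay above the Input libraries without overlap for 3 of the 5 members, Ythdf3, Ythdc1 and Ythdc2. For 0 members they lay below. Such separation in CPM was seen for 36.5% of all tested genes, with the IP above for 12.8% and below for 23.7%. The tally depended on the scaling. Per all reads in the file, Ythdf3, Ythdc1 and Ythdc2 overlapped between the groups. Every IP library of Ythdf2 and Ythdf1 then lay below every Input one. Separation of all tested genes on that scale was not counted. The log2 fold changes of Ythdf3, Ythdc1 and Ythdc2 under TMM lay between 0.49 and 0.58, each with between 70.1% and 73.1% of tested genes below it. Ythdf2 and Ythdf1 had 50.2% and 39.9% of tested genes below them. By point estimate Ythdf3 stood with Ythdc1 and Ythdc2 and apart from the other two cytoplasmic paralogues, but the 95% intervals of all 5 members overlapped.

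**Figure D2:**
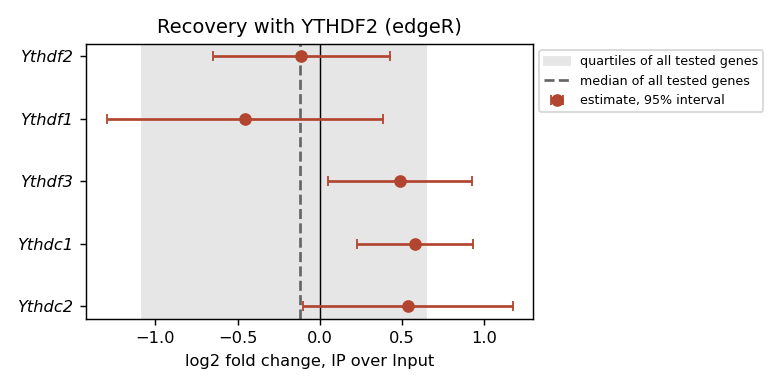
Log2 fold change of IP over Input for each member from edgeR's fit of all genes, with 95% intervals. The dashed line is the median of all tested genes, -0.12, and the grey band runs between their quartiles, -1.08 and 0.65. All 5 estimates lie inside the band, and the intervals of Ythdf3 and Ythdc1 lie above 0.

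Ratios between members within a library need no scaling, so they were compared next, each with an exact two-sided permutation test over the libraries. With 3 against 3 libraries the smallest p this test allows is 0.1, so none could pass 0.05. For each Ythdc1 read there were 0.217, 0.170 and 0.178 Ythdf2 reads in the IP libraries, against 0.333, 0.304 and 0.277 in the Input libraries. All 3 IP ratios lay below all 3 Input ratios, by a mean log2 difference of -0.70, a fold of 0.617, with an exact permutation p of 0.1 and 0.2 after adjustment over the 4 ratios. Since the scaling cancels, this lower ratio of Ythdf2 to Ythdc1 holds whichever library size is taken. How often the ratio of Ythdf2 to other tested genes separates the groups was not counted. The log2 fold changes of all tested genes had quartiles of -1.08 and 0.65 under TMM. Separation of the ratios given here is therefore not shown to be particular to the family.

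For each Ythdc2 read there were 1.81, 1.24 and 1.17 Ythdf2 reads in the IP libraries, against 2.39, 2.07 and 2.08 in the Input libraries. This ratio too did not overlap, with a mean log2 difference of -0.66, an exact permutation p of 0.1 and an adjusted p of 0.2. For each Ythdf3 read there were 0.580, 0.423 and 0.265 Ythdf2 reads in the IP libraries, against 0.658, 0.635 and 0.538 in the Input libraries. IP replicate 1 lay above Input replicate 3 here, so the groups overlapped, and the mean log2 difference of -0.60 had an exact permutation p of 0.2 and an adjusted p of 0.267. Without IP replicate 3 that difference was -0.30.

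The ratio of Ythdf2 to Ythdf1 ran the other way on average. There were 4.33, 1.59 and 1.29 Ythdf2 reads for each Ythdf1 read in the IP libraries, against 1.86, 1.56 and 1.26 in the Input libraries. The mean log2 difference of 0.43 had an exact permutation p of 0.6, also after adjustment. Its sign rested on IP replicate 1, where Ythdf1 was low, and without that library the difference was -0.11.

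**Figure D3:**
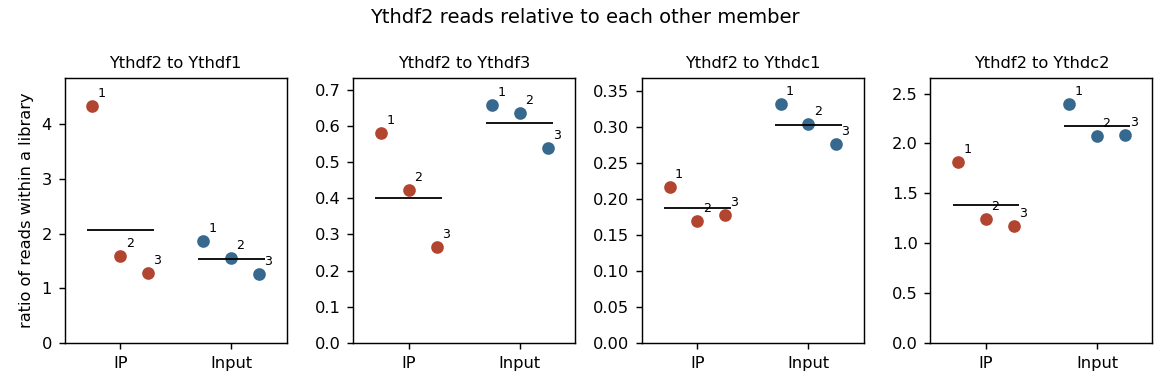
Ratio of Ythdf2 reads to the reads of each other member within a library, 1 panel per ratio with its own axis from 0, for IP libraries (left, red) and Input libraries (right, blue). Points are libraries with their replicate number and black lines are geometric means. The IP and Input points are apart for Ythdc1 and Ythdc2 and overlap for Ythdf3 and Ythdf1, where IP replicate 1 stands at 4.33.

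The make-up of the family's own reads shows the same measurements as shares. Ythdc1 held 52.9% ± 5.41 of the reads of the 5 genes in the IP and 46.7% ± 0.347 in the Input (SD, n = 3 each). IP replicate 3, at 46.7%, lay within the Input range, so the groups overlapped. Ythdf2 held 10.0% ± 2.08 in the IP and 14.2% ± 1.27 in the Input (SD, n = 3 each), and its highest IP share, 12.3%, lay below its lowest Input share, 12.9%. Ythdf1 held 5.06% ± 1.94 in the IP and 9.24% ± 0.985 in the Input (SD, n = 3 each), also without overlap. Ythdf3, at 24.9% ± 5.64 and 23.3% ± 0.739, and Ythdc2, at 7.15% ± 0.378 and 6.51% ± 0.364 (IP and Input, SD, n = 3 each), overlapped. These shares add up to the whole, so a higher share of one gene lowers those of the others, and they depend on gene length. How often such shares separate in other sets of genes was not counted. The separation of Ythdf2 and Ythdf1 is therefore not shown to be particular to them.

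The IP libraries disagreed with each other more than the Input libraries did, and not in one common order. The CV of the members ranged from 13.4% to 40.9% in the IP and from 1.63% to 10.3% in the Input. For all genes within the members' range of Input level, the median CV was 28.5% among IP and 12.6% among Input libraries. IP replicate 1 held the highest IP value of Ythdf2 and the lowest of Ythdf1, Ythdf3 and Ythdc2. IP replicate 2 was highest for Ythdf1, Ythdc1 and Ythdc2, and IP replicate 3 was highest for Ythdf3 and lowest for Ythdf2 and Ythdc1.

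**Figure D4:**
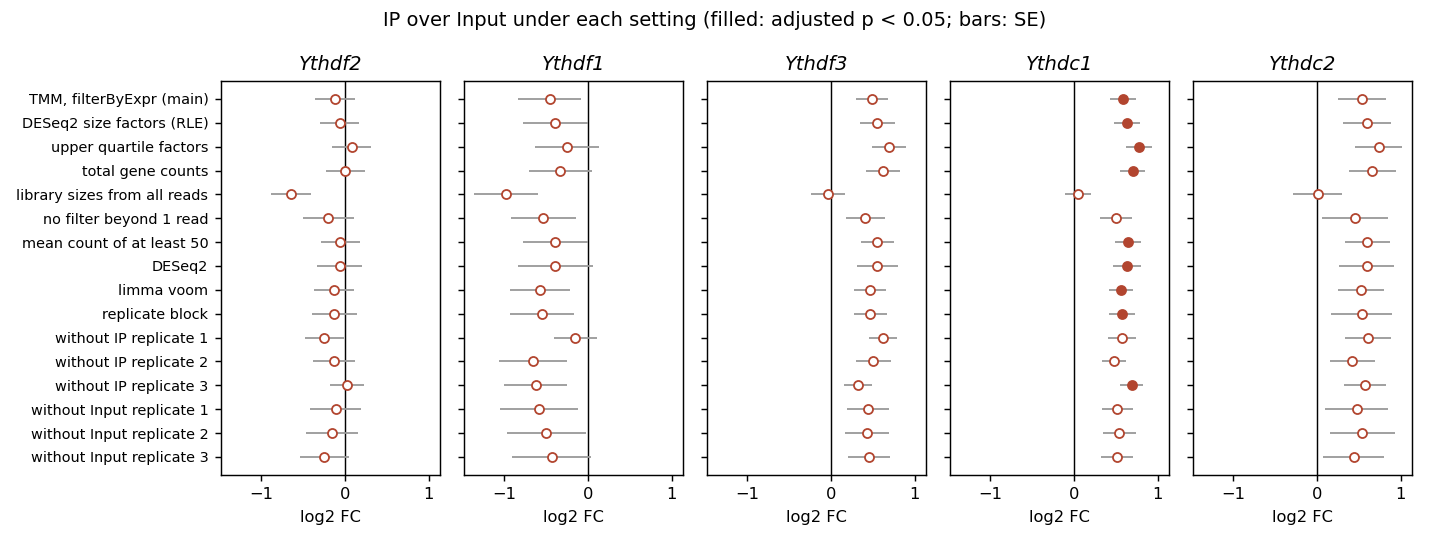
Log2 fold change of IP over Input (horizontal) for each member under the main setting and 15 others (rows), with SE bars. Filled points have an adjusted p under 0.05. Ythdc1 is filled in the main setting and in 8 of the 15 others, no other member is filled in any, and with library sizes from all reads all 5 members lie lower, at -0.98 to 0.05.

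The 2 genes whose profile over the 6 libraries was closest to that of Ythdf2 were found among 8668 others that averaged 10 CPM or more. Likeness was the root mean square difference of log2 CPM after centring each gene over the 6 libraries. The closest was ENSMUSG00000002489.16, at 0.0419, with 202 ± 42.9 CPM in the IP and 208 ± 18.0 CPM in the Input (SD, n = 3 each). Next came ENSMUSG00000039031.16, at 0.0486, with 67.1 ± 14.4 CPM in the IP and 71.3 ± 3.85 CPM in the Input (SD, n = 3 each). The other family members lay at 0.37 (Ythdc1), 0.39 (Ythdc2), 0.45 (Ythdf3) and 0.60 (Ythdf1) from Ythdf2. Of the 8668 genes searched, 19.9% were closer to Ythdf2 than Ythdc1 was, 22.1% than Ythdc2, 30.8% than Ythdf3 and 49.4% than Ythdf1.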

How the data were processed

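The authors deposited raw read counts by Ensembl gene ID, with a file for each library. Per the submitters' processing notes, Trimmomatic 0.39, HISAT2 2.1.0, HTSeq and DESeq2 were used with mm10, with no role or order given. The library kit keeps strand, per the labels' protocols. The annotation release, strand setting and handling of duplicates are not stated in the sources used here, and counting on the intended strand is assumed.

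The 5 summary categories and 92 spike-in IDs (0 to 2 reads per library) were left out of library sizes and tests. All gene IDs were fitted together with edgeR 4.0.16 in R 4.3.3 (filterByExpr, TMM, quasi-likelihood F-test, robust, group as the only term, two-sided, Benjamini-Hochberg over 15615 genes). SEs come from the F statistics. The script was tested on simulated data with equal spread in both groups and changes larger than those of the members. That test does not bear on calls of the size seen for Ythdc1. Ratios within a library had 0.5 reads added to each count. Alternatives were other factors, library sizes and filters, DESeq2 1.42.0, limma 3.58.1 (voom), a replicate block and each library left out, with the tested genes kept as in the full fit except under the filters. Replicates were not repeats of 1 library (chi-square per degree of freedom at least 16.1). Without molecular identifiers, the Poisson intervals of single libraries cover counting error only. The intervals of the fold changes come from edgeR's fit and include the spread among libraries. The reference gene table held 0 Ensembl IDs in 49997 rows, so only the members were named, by the pairing of ID and symbol that defines them, and gene lists and cell markers were not applied. By rule, all members and the 2 genes closest to Ythdf2 were named. The members, lists and tests were chosen with earlier results of these data known.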

Additional observations from a re-analysis of the deposited data

Results flagged for a closer look

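Reads in no annotated feature were singled out because they lie outside the gene counts and were more frequent in the IP: they made up 71.7% of the reads of an IP file on average and 50.4% of those of an Input file. They enter the members' values only where library sizes are taken from all reads.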

How the results depend on the processing

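Over 15 other settings, Ythdf1 stayed below 0 and Ythdc1 and Ythdc2 above 0 in log2 fold change of IP over Input, and Ythdf2, Ythdf1, Ythdf3 and Ythdc2 passed the test in 0 of them. Ythdf2, at -0.11, was 0.0811 with upper quartile factors and 0.00314 with total gene counts, and -0.245 to 0.0241 with 1 library left out, where the value above 0 came without IP replicate 3. Ythdf3, at 0.49, was -0.0334 with library sizes from all reads. The call on Ythdc1, at 0.58, was lost with library sizes from all reads (0.0517) and with no filter beyond 1 read (0.499), which left 0 members called in place of 1 in each. Leaving out 1 library gave 0.48 to 0.69 for Ythdc1 and 0 to 1 members called. The log2 difference in the ratio of Ythdf2 to Ythdf1, 0.43, ranged from -0.11 to 0.77 with 1 library left out, and the other ratios kept their sign in every setting run. Genes higher in the IP numbered 676, against 1081 with upper quartile factors, 160 with library sizes from all reads and 1259 with DESeq2, and 186 to 1100 with 1 library left out. Genes lower in the IP numbered 954, against 1958 with library sizes from all reads, 1551 with DESeq2, 1715 with limma voom and 507 to 1694 with 1 library left out. Genes higher in the IP made up 41.5% of calls under TMM, 57.4% under upper quartile factors, 51.8% under total gene counts and 7.55% under library sizes from all reads. Over all tested genes the log2 fold change had a median of -0.12 under TMM, and of 0.08, 0.00 and -0.65 under the other 3 in that order. Fits without a library have fewer samples, and for the rest the cause was not tested. With a replicate block, Ythdc1 had a log2 fold change of 0.57 and an adjusted p of 0.0212 in edgeR's test, and no member's call changed. The labels do not say that equal numbers share a lysate, and after centring within each group the IP and Input libraries of numbers 1, 2 and 3 had correlations of 0.0858, 0.0171 and 0.0243 across tested genes, all too low for pairing to be assumed. Each of the 6 was still closest to its own number, in places by a small margin. Input replicate 2 had a correlation of 0.0171 with IP replicate 2 and of 0.0153 with IP replicate 3. After centring, these matches are not independent of each other, so they do not show pairing. With 3 libraries a group, the lowest bound of any member's interval under TMM was a fold of 0.407, for Ythdf1. The highest was 2.25, for Ythdc2. The intervals of Ythdf3 and Ythdc1 lay above 0 in log2 fold change.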
